A study of Canis lupus familiaris with 34 samples.

Results

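The heat shock proteins and their DNAJ co-chaperones were followed in 34 primary cutaneous mast cell tumours (MCTs) of dogs. The metastasising (M) group held 18 of them and the non-metastasising (NM) group 16. Members were all Transcript clusters, the gene-level probe sets of the array, with 1 platform symbol that begins with HSPA, HSPB, HSPD, HSPE, HSPH, HSP70, HSP90, DNAJA, DNAJB or DNAJC. Of the 32391 clusters of the array, 69 met this rule, and they represent 67 genes, since HSP70 and HSPE1 have 2 clusters each. A further 6 clusters carry such a symbol together with another gene's and were set apart. All MCTs came from formalin-fixed, paraffin-embedded (FFPE) diagnostic biopsies of solitary tumours, each from a different dog. Dogs of the M group died of metastatic disease, which imaging and pathology had established, and could have received chemotherapy or radiotherapy after surgery. Dogs of the NM group received no such treatment and outlived a long follow-up, so that outcome and later treatment are tied together in the groups. The M group held 9 female and 9 male dogs with a median age of 8 years (2 to 15), of 10 breeds with cross breeds taken as 1, among them 7 Labrador Retrievers, 3 cross breeds, 1 Boxer and 1 Golden Retriever. The NM group held 5 female and 11 male dogs with a median age of 5 years (3 to 11), of 8 breeds counted in the same way, among them 3 Labrador Retrievers, 3 cross breeds, 3 Boxers and 3 Golden Retrievers.

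Heat shock proteins keep other proteins folded. HSP70 proteins bind and release unfolded stretches in a cycle driven by ATP, and DNAJ proteins, which share the J domain, hand them their clients and start ATP hydrolysis. HSP90 proteins finish the folding of many kinases, among them KIT, the receptor on which mast cells depend, whereas small heat shock proteins hold damaged proteins without using ATP. The transcription factor HSF1 switches on the inducible members, HSP70 and DNAJB1 among them, when unfolded proteins accumulate.

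The values are log2 expression after Robust Multichip Analysis, and only values of the same cluster are set against each other. A cluster was tested with limma if it exceeded 1.84, the table's median, in 30% or more of the tumours of either group, which 19246 clusters did. Array medians lay between 1.79 and 1.91, and correlations between 2 arrays between 0.636 and 0.954. Of 13 mast cell genes on the array 12 were above the level filter, and their summed level, the mean z-score per tumour, was 0.05 ± 0.75 in M and -0.05 ± 1.00 in NM MCTs (SD, n = 18 and 16). Keratinocyte genes were lower in the M group, with 24 of 30 at an unadjusted p under 0.05 and a score of -0.35 ± 0.57 (-0.96 to 0.93) in M and 0.39 ± 0.92 (-0.86 to 1.97) in NM MCTs (two-sided permutation test, p = 0.00815). Immediate early genes were lower too, with 10 of 19 at that level and scores of -0.31 ± 0.63 in M and 0.35 ± 0.57 in NM MCTs (permutation test, p = 0.00342), and leukocyte genes were higher, with 4 of 16 and scores of 0.20 ± 0.61 in M and -0.23 ± 0.38 in NM MCTs (permutation test, p = 0.0175). Over all tested clusters the share at that level was 4.14%. The lists were chosen with earlier results of these tumours known. Those of keratinocyte and immediate early genes include genes that the authors reported as lower in M MCTs, such as KRT5 and EGR1. These counts and p-values are therefore a description. In such biopsies fewer cells of a type and less RNA per cell cannot be told apart.

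The share of members that differed between M and NM MCTs was close to that of all clusters. Of the 69 member clusters, 43 (42 genes) passed the level filter. At an unadjusted p under 0.05, 2 of them (4.65%) differed, against 4.14% of all tested clusters. DNAJA3 was the 1 member higher in M MCTs, where 1.34% of all clusters were higher at this level, and DNAJC11 the 1 member lower, where 2.8% of all clusters were lower. After Benjamini-Hochberg adjustment over all clusters limma called 0 members and 0% of all clusters (smallest adjusted p among members = 0.9997, among all clusters = 0.558). The methods' t-test with this same adjustment also gave 0. The authors instead adjusted it by permutation over a smaller set of clusters, and DNAJA3 was among those they called. Means were higher in M MCTs for 17 members and lower for 26. The median difference, M minus NM on the log2 scale, was -0.01 over the members, against -0.02 over all tested clusters, and the median absolute difference was 0.06 against 0.07. Members varied slightly more between tumours than other clusters, with a median SD of 0.35 against 0.32. Each limma p-value sets a mean difference against the spread between tumours of different dogs, which limma moderates over all tested clusters.

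**Figure D1:**
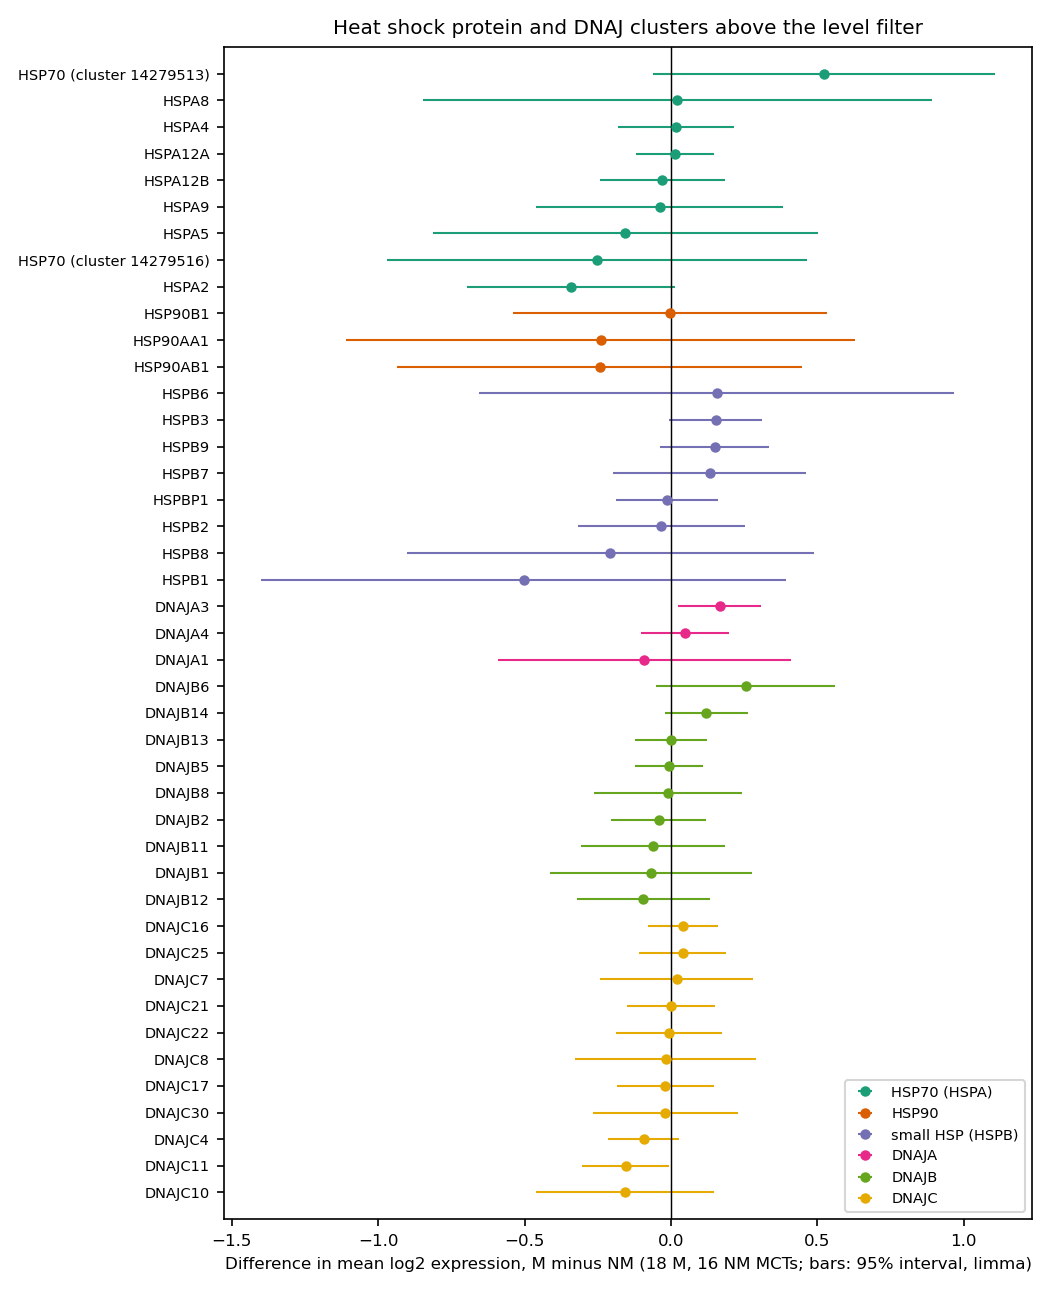
Difference in mean log2 expression, M minus NM, with 95% intervals from limma (18 M and 16 NM MCTs), for the 43 tested member clusters, coloured by subfamily. The intervals of DNAJA3 (0.03 to 0.31) and DNAJC11 (-0.30 to -0.01) lie to 1 side of 0, and the widest intervals belong to HSPB1, HSPA8 and HSP90AA1.

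HSP70, the stress-inducible cytosolic chaperone known in RefSeq also as HSPA1, was measured by 2 clusters whose group differences ran opposite ways. In the cluster with the higher mean, 14279516, the lowest, median and highest log2 values were 2.56, 3.50 and 6.90 in M MCTs and 2.86, 3.75 and 8.04 in NM MCTs. A single tumour in each group lay far above the others, M2 at 6.90 and NM7 at 8.04, and the remaining tumours overlapped, the next highest being M5 at 4.45. The difference was -0.25 (SE 0.35, limma p = 0.479, adjusted p = 0.9997), and it was 0.02 without NM7 and -0.44 without M2. Both clusters are annotated to the same gene, and which of the near-identical HSP70 gene copies each detects could not be settled here.

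In the other HSP70 cluster, 14279513, the values were 1.82, 2.38 and 6.22 in M MCTs and 1.22, 2.36 and 2.95 in NM MCTs. Medians were nearly equal, and M2 (6.22), M13 (4.17), M3 (3.85), M5 (3.09) and M12 (2.97) exceeded every NM tumour. NM7, the highest tumour in the first cluster, was among the lowest here at 1.38. The difference was 0.52 (SE 0.29, p = 0.077, adjusted p = 0.9997), one of 2 members with a difference of at least 0.5, and it was 0.32 (p = 0.124) without M2 and 0.18 (p = 0.559) with the age of the dog as a covariate. The dog of M2 was the oldest, at 15 years. HSP70 had been singled out with results of these tumours known, so its p-values are a description. Over the 34 tumours the clusters correlated with r = 0.344 (permutation p = 0.0583) and rho = 0.365 (p = 0.0351), adjusted p = 0.127 and 0.0923. Within M MCTs r was 0.829 and within NM MCTs -0.335. The first value includes M2 and the second NM7, the tumours that stood apart. Without M2 and NM7 r was 0.357 over the other tumours (permutation p = 0.0445).

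HSPA8, the housekeeping chaperone of the cytosol, had the highest SD of the HSP70 family (1.27), with 1.58, 3.35 and 5.85 in M and 1.53, 3.28 and 5.60 in NM MCTs, a difference of 0.02 (SE 0.43, p = 0.96). HSPA5, the chaperone of the endoplasmic reticulum (ER) also called BiP, spanned 1.95 to 5.23 in M and 2.76 to 6.12 in NM MCTs (difference -0.16, SE 0.32, p = 0.634). HSPA9, its mitochondrial counterpart, differed by -0.04 (SE 0.21, p = 0.853). Of the 12 clusters of this family 9 were tested, 4 with a higher and 5 with a lower mean in M MCTs, and 0 had an unadjusted p under 0.05.

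HSPA2, a member best known for its role in sperm development, had the smallest p of the family. Values were 2.53, 3.52 and 4.04 in M MCTs and 2.37, 3.72 and 4.70 in NM MCTs. The highest M tumour lay below the highest NM tumours, and 5 of the 18 M MCTs exceeded the NM median. The difference was -0.34 (SE 0.18, p = 0.0598, adjusted p = 0.9997). The unadjusted p was under 0.05 in 6 of 34 fits without a tumour (without M4, M7, M10, M12, NM8 or NM11), the lowest being 0.0102 without NM8, the lowest tumour of all. It was also under 0.05 with array weights (0.0156) and with sex (0.0467). With the keratinocyte score as a covariate the difference was -0.19 (p = 0.33), and with age it was -0.42 (p = 0.0405). HSPA2 was also the 1 of 43 tested members (2.33%) that correlated above 0.5 with the mean correlation of an array with the others (r = 0.52), against 2.3% of all tested clusters. With that measure as a covariate the difference was -0.29 (p = 0.0695).

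**Figure D2:**
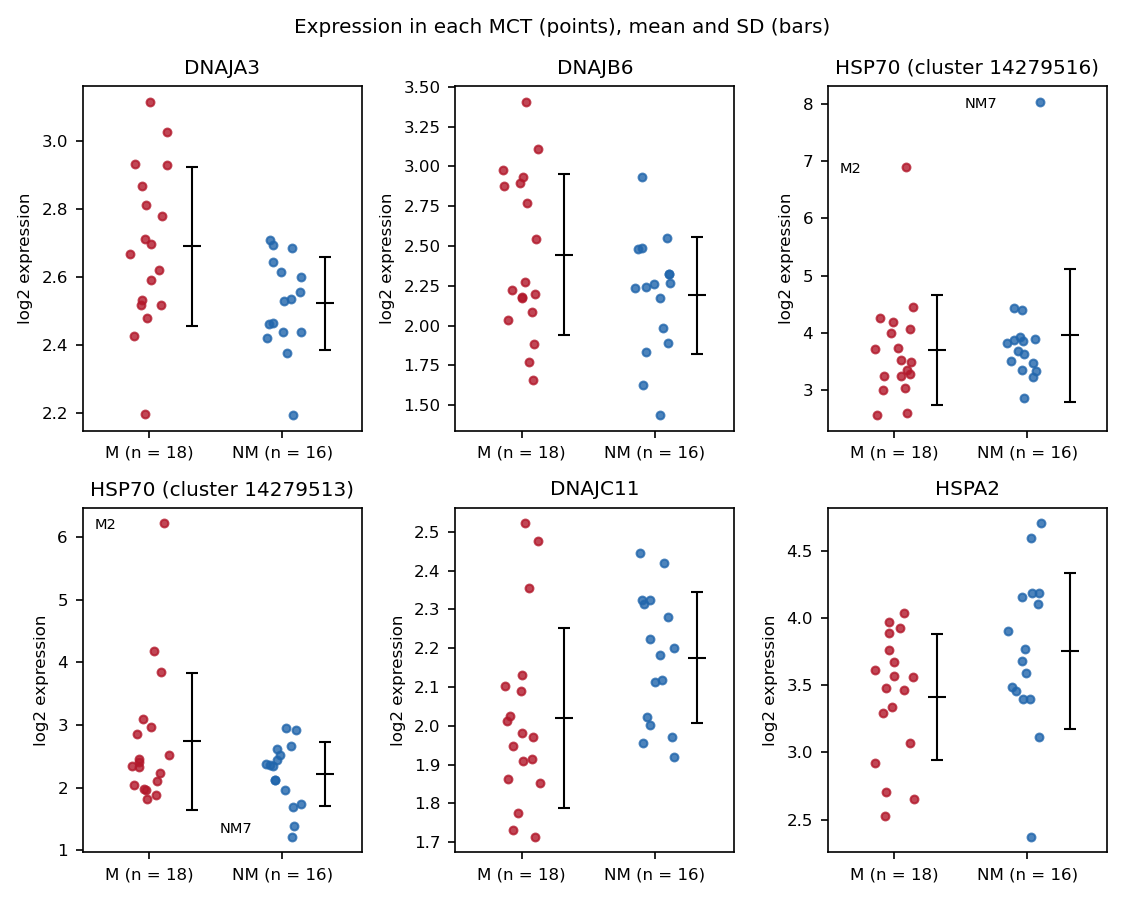
Log2 expression in each tumour (points) of DNAJA3, DNAJB6, both HSP70 clusters, DNAJC11 and HSPA2 in M (n = 18) and NM (n = 16) MCTs, with the mean and SD at the side. Groups overlapped in every panel, and M2 and NM7 stand apart in the HSP70 cluster 14279516, where they reach 6.90 and 8.04.

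All 3 HSP90 genes were tested and had a lower mean in M MCTs, with differences smaller than their spread. HSP90AA1, the inducible cytosolic form, had 1.98, 4.01 and 6.41 in M and 1.90, 4.11 and 6.81 in NM MCTs (difference -0.24, SE 0.43, p = 0.578). HSP90AB1, the constitutive cytosolic form, had 1.67, 2.92 and 5.52 in M and 1.70, 3.10 and 5.14 in NM MCTs (difference -0.24, SE 0.34, p = 0.479). HSP90B1, the ER form, differed by -0.003 (SE 0.26, p = 0.991). With the keratinocyte score as a covariate the differences became 0.27 for HSP90AA1 (p = 0.539) and 0.20 for HSP90AB1 (p = 0.572), so their sign was not settled.

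Among small heat shock proteins, HSPB1, also called HSP27 and abundant in differentiating keratinocytes, had the highest SD (1.33). It ran over 4.36, 5.44 and 8.58 in M MCTs and 3.87, 6.41 and 9.06 in NM MCTs. The NM median was higher, but 6 of the 18 M MCTs exceeded it, and the difference was -0.50 (SE 0.44, p = 0.263, adjusted p = 0.9997). HSPB1 correlated with the keratinocyte score (r = 0.675, rho = 0.507, permutation p = 2e-05 and 0.00244, adjusted p = 0.000143 and 0.0111), and r was 0.553 without NM1 and NM14, 0.348 within M and 0.889 within NM MCTs. It also correlated with the mean correlation of an array with the others (r = 0.456, rho = 0.46, permutation p = 0.0067 and 0.0069, adjusted p = 0.0258 and 0.0287), with r = 0.326 without M1 and NM3, and with that measure as a covariate the group difference was -0.39 (p = 0.345). With the keratinocyte score as a covariate the difference was 0.37 (p = 0.328). A relation to smooth muscle and pericyte genes was close too (r = 0.767, rho = 0.705, permutation p = 1e-05 each, the smallest that 100000 resamples can give, adjusted p = 0.0001 and 8.33e-05).

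HSPB2, HSPB6, HSPB7 and HSPB8, small heat shock proteins of muscle, were all highest in the same pair of M tumours, M5 and M6. The skeletal muscle score, over 20 genes, split the tumours, with M5 at 3.36, M6 at 2.77, NM15 at 2.24 and NM1 at 1.46, whereas NM4, the next, had 0.45. HSPB8, which works with the co-chaperone BAG3 in the removal of damaged proteins, was highest in the same 4, at 6.19 in M6, 6.12 in M5, 5.32 in NM15 and 4.79 in NM1. HSPB6 was highest at 7.47 in M6, 6.94 in M5 and 6.11 in NM1.

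HSPB7 reached 3.72 in M6 and 3.51 in M5, against 2.84 in NM15, the highest NM tumour. HSPB2 reached 4.73 in M5 and 4.43 in M6, against 4.30 in NM4 and 4.23 in NM15. M5 and M6 also had the highest muscle scores, whereas the highest NM tumour differed from gene to gene. In the 30 other tumours, HSPB2 still correlated with the muscle score (r = 0.701, rho = 0.651, permutation p = 0.00012 and 0.00013, adjusted p = 0.0006 and 0.000929), though r was 0.41 without NM13 and NM4. HSPB6 (r = -0.0975, adjusted p = 0.707) and HSPB8 (r = -0.0539, adjusted p = 0.841) had no relation to it that passed a permutation test there (rho -0.282 and -0.236, adjusted p = 0.227 and 0.286).

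Smooth muscle and pericyte genes tracked HSPB6 and HSPB8 across all 34 tumours. These 34 include M5, M6, NM15 and NM1, which the skeletal muscle relations left out. Their smooth muscle and pericyte scores were 1.05, 0.49, 0.56 and 0.97, and relations without all of them were not computed. For HSPB8 r was 0.735 and rho 0.75 (permutation p = 1e-05 each, adjusted p = 0.0001 and 8.33e-05), with 0.739 within M and 0.759 within NM MCTs. For HSPB6 r was 0.639 and rho 0.599 (permutation p = 0.00011 and 0.00023, adjusted p = 0.0006 and 0.00144). HSPB6 and HSPB8 themselves correlated with r = 0.863 and rho = 0.749 (permutation p = 1e-05 each, adjusted p = 0.0001 and 8.33e-05), and r was 0.698 without M5 and M6. DES, the muscle intermediate filament gene, stands in both muscle lists, so the scores share 1 gene.

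**Figure D3:**
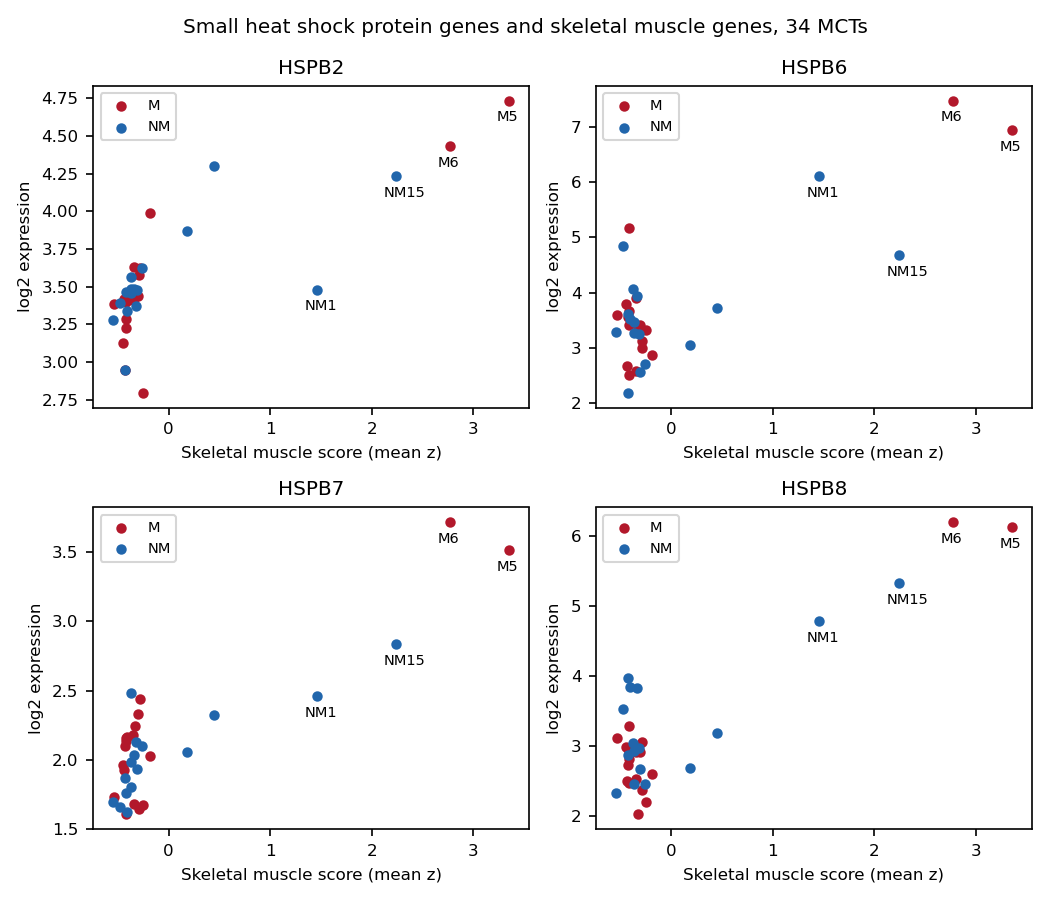
Log2 expression of HSPB2, HSPB6, HSPB7 and HSPB8 (vertical axes) against the skeletal muscle score (horizontal axes, mean z of 20 genes) in 18 M and 16 NM MCTs. M5, M6, NM15 and NM1, with scores from 3.36 down to 1.46, lie apart from the 30 other tumours and hold the highest values of HSPB8.

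Group differences of these genes were small against that spread. HSPB6 differed by 0.16 (SE 0.40, p = 0.697), HSPB7 by 0.13 (SE 0.16, p = 0.419) and HSPB8 by -0.21 (SE 0.34, p = 0.55). With breed as a block HSPB8 differed by -0.58 (p = 0.0431, adjusted p = 0.9988). M5 and M6, each the only tumour of its breed, add nothing to the difference in that fit. HSPB8 differed by -0.38 without M5 and by -0.39 without M6. Without M5 or without M6 the difference of HSPB6 was -0.03 or -0.06 and that of HSPB7 0.05 or 0.04. HSPB3, a small heat shock protein of muscle, had the smallest p of its subfamily, with 2.02, 2.33 and 2.87 in M and 1.82, 2.16 and 2.64 in NM MCTs, a difference of 0.15 (SE 0.08, p = 0.0599, adjusted p = 0.9997), and 14 of the 18 M MCTs lay above the NM median. Its unadjusted p was under 0.05 in 7 of 34 fits without a tumour, as without M2 (0.0345). HSPB9, a testis form, differed by 0.15 (SE 0.09, p = 0.111). Of the 9 clusters whose symbol begins with HSPB, 8 were tested, 4 higher and 4 lower in M MCTs, and 0 had an unadjusted p under 0.05. They include HSPBP1, which is no small heat shock protein but an exchange factor of HSP70 (difference -0.01, p = 0.878). HSPB2 and the crystallin gene CRYAB are adjacent in the RefSeq annotation of a German Shepherd Dog assembly. They correlated with r = 0.716 and rho = 0.275 (permutation p = 0.00012 and 0.116, adjusted p = 0.0006 and 0.215), and r was 0.415 without M5 and M6.

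The mitochondrial chaperonin genes HSPD1 and HSPE1 and the HSP110 gene HSPH1 lay below the level filter, as did 26 member clusters in all. Their means ran from 1.21 to 1.74 in M and from 1.24 to 1.73 in NM MCTs, and their differences from -0.17 to 0.29. HSPD1 averaged 1.68 ± 0.48 in M and 1.39 ± 0.32 in NM MCTs (SD, n = 18 and 16). By limma it was the 1 of the 26 with an unadjusted p under 0.05 where no filter was applied (difference 0.29, p = 0.0442, adjusted p = 0.9988). In that fit 3.96% of all clusters were at that level. At such levels signal and background cannot be separated without detection values.

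DNAJA3, also called Tid1, is a J protein that serves HSPA9 in mitochondria. Its log2 values were 2.20, 2.68 and 3.12 in M MCTs and 2.19, 2.53 and 2.71 in NM MCTs. The lowest values were alike, and the M group extended further upward, with 13 of 18 M MCTs above the NM median. The difference was 0.17 (SE 0.07, 95% interval 0.03 to 0.31, p = 0.0221, adjusted p = 0.9997). It was the smallest p among the 43 tested members and rank 337 among all 19246 clusters. DNAJA3 too had been singled out with results of these tumours known, so the p is a description.

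Leaving out single tumours kept the DNAJA3 difference between 0.14 and 0.20, with an unadjusted p under 0.05 in 34 of 34 fits. With breed as a block it was 0.11 (p = 0.228). No relation of DNAJA3 with the keratinocyte or the mast cell score passed. For keratinocyte genes r was -0.186 (permutation p = 0.293) and rho -0.224 (p = 0.204), adjusted p = 0.419 and 0.286. For mast cell genes r was -0.128 (permutation p = 0.469) and rho -0.195 (p = 0.267), adjusted p = 0.602 and 0.345. Relations of DNAJA3 with the other cell type scores, muscle among them, were not computed. Among the other DNAJA genes, DNAJA1, a partner of HSPA8 in the cytosol and the most variable of them (SD 0.73), had 1.75, 2.68 and 4.30 in M and 2.03, 2.54 and 4.19 in NM MCTs (difference -0.09, SE 0.25, p = 0.716), and DNAJA4 differed by 0.05 (SE 0.07, p = 0.518).

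DNAJB6 encodes a J protein that keeps aggregation-prone proteins soluble. Its values were 1.66, 2.25 and 3.41 in M MCTs and 1.44, 2.25 and 2.93 in NM MCTs. Medians were the same to 2 decimals, and the M mean was raised by a set of tumours at the upper end. The difference was 0.26 (SE 0.15, p = 0.0996, adjusted p = 0.9997), the highest mean difference of the DNAJ genes.

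The DNAJB6 difference was larger when the keratinocyte score was in the fit. Within each group DNAJB6 was higher where keratinocyte genes were higher, with r = 0.605 in M and 0.508 in NM MCTs, although the M group, with the lower score, had the higher DNAJB6 mean. Pooled over the tumours r was 0.315 (permutation p = 0.0706) and rho 0.303 (p = 0.0817), adjusted p = 0.147 and 0.157. The slope was 0.54 within M and 0.20 within NM MCTs, and the difference of slopes was not tested. With the score as a covariate the difference between groups was 0.48 (SE 0.15, limma p = 0.00263, adjusted p = 0.9999), rank 18 of the 19246 clusters in that fit. The score itself differed between groups and its list was chosen with earlier results known, so this p is a description. The DNAJB6 difference was 0.37 (p = 0.033) with age and 0.20 (p = 0.257) with breed as a block. In human breast cancer cells the microRNA miR-632 has been described to lower DNAJB6. Here DNAJB6 and the precursor MIR632 had r = -0.00467 (permutation p = 0.979) and rho = -0.139 (p = 0.432), adjusted p = 0.979 and 0.514.

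**Figure D4:**
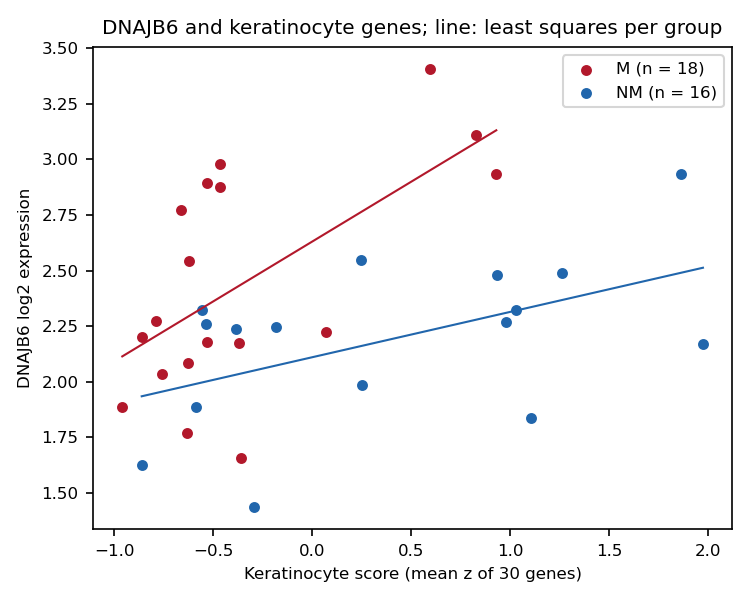
Log2 expression of DNAJB6 (vertical axis) against the keratinocyte score (horizontal axis, mean z of 30 genes) in 18 M and 16 NM MCTs, with a least squares line per group. Both lines ascend (slopes 0.54 in M and 0.20 in NM MCTs), and the M line lies above the NM line.

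DNAJB1, the inducible J protein that partners HSP70, was dominated by 1 tumour. Values were 2.41, 2.79 and 5.18 in M and 2.41, 2.99 and 3.55 in NM MCTs, with M2 at 5.18 and NM1, the next, at 3.55. The difference was -0.07 (SE 0.17, p = 0.697), and -0.20 (p = 0.0793) without M2. DNAJB1 correlated with HSP70 cluster 14279513 (r = 0.694, rho = 0.383, permutation p = 0.00175 and 0.0261, adjusted p = 0.00729 and 0.0767), but r was 0.286 without M2 and NM1. With cluster 14279516 r was 0.532 and rho 0.588 (permutation p = 0.0196 and 0.00033, adjusted p = 0.0629 and 0.00183), and r was 0.25 without M2 and NM1. With HSPH1, highest in M2 as well at 3.18, r was 0.613 and rho 0.209 (permutation p = 0.0139 and 0.234, adjusted p = 0.0496 and 0.317), and r was -0.0403 without M2 and NM8.

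M2 thus had the highest values of 3 inducible chaperone measurements and the second highest HSP70 cluster 14279516. It also had the highest leukocyte (1.99) and endothelium (1.72) scores of all tumours. Their part in its chaperone levels was not tested. Of the 43 tested members 5 (11.6%) were highest in M2, against 6.34% of all tested clusters. M5 was highest for 8 members (18.6%), against 5.51% of all clusters, and M6 for 4 (9.3%), against 1.61%.

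Of the 13 DNAJB clusters 9 were tested, 3 higher and 6 lower in M MCTs, and 0 had an unadjusted p under 0.05. DNAJB14, a J protein of the ER membrane, had 1.51, 1.83 and 2.29 in M and 1.43, 1.71 and 2.09 in NM MCTs. The difference was 0.12 (SE 0.07, limma p = 0.0905). DNAJB14 exceeded the level of the filter in 9 M and 3 NM MCTs, so it was tested through the M group only. Most of its NM values lay below that level, and its difference rests on weak signal. DNAJB12, its close relative, differed by -0.09 (SE 0.11, p = 0.407) and DNAJB2, a neuronal J protein, by -0.04 (SE 0.08, p = 0.604).

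In the DNAJC group, the most diverse of the J proteins, 11 of 24 clusters were tested, 4 higher and 7 lower in M MCTs. DNAJC11, a protein of the mitochondrial outer membrane, had 1.71, 1.98 and 2.52 in M and 1.92, 2.19 and 2.45 in NM MCTs. Most M tumours lay low, 3 of 18 above the NM median, but M5 had the highest value of all. The difference was -0.16 (SE 0.07, 95% interval -0.30 to -0.01, p = 0.041, adjusted p = 0.9997). Its call was fragile, as the unadjusted p was under 0.05 in 17 of 34 fits without a tumour and 0.172 both with the keratinocyte score and with breed as a block. DNAJC4 differed by -0.09 (SE 0.06, p = 0.131), and by -0.17 (p = 0.0222) within breeds. DNAJC10, an ER disulphide reductase with the highest SD of the group (0.45), differed by -0.16 (SE 0.15, p = 0.302), and by -0.05 without NM8, its highest tumour at 3.61. DNAJC16 differed by 0.04 (SE 0.06, p = 0.49).

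Some pairs of members, chosen after values were seen, varied together from tumour to tumour. HSPA8 and HSP90AB1 correlated with r = 0.881 and rho = 0.877 (permutation p = 1e-05 each, adjusted p = 0.0001 and 8.33e-05), 0.926 within M and 0.849 within NM MCTs. HSPA5 and HSP90B1, both of the ER, had r = 0.797 and rho = 0.77 (permutation p = 1e-05 each, adjusted p = 0.0001 and 8.33e-05), 0.624 within M and 0.954 within NM MCTs. With HSPA5 and HSP90B1, r was 0.661 and 0.775 for DNAJC10 and 0.558 and 0.583 for DNAJB11, and lower for DNAJB12 (0.252 and 0.181). DNAJB14 had negative r with HSPA5, HSP90B1, HSPA8 and HSP90AB1, but its means of 1.86 in M and 1.74 in NM MCTs lie near the level filter. Over the 903 pairs of tested members the median r was 0.083 and 9.75% exceeded 0.5, against 0.019 and 4.2% over pairs of all tested clusters. The pairs share tumours and arrays, so these shares are a description.

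**Figure D5:**
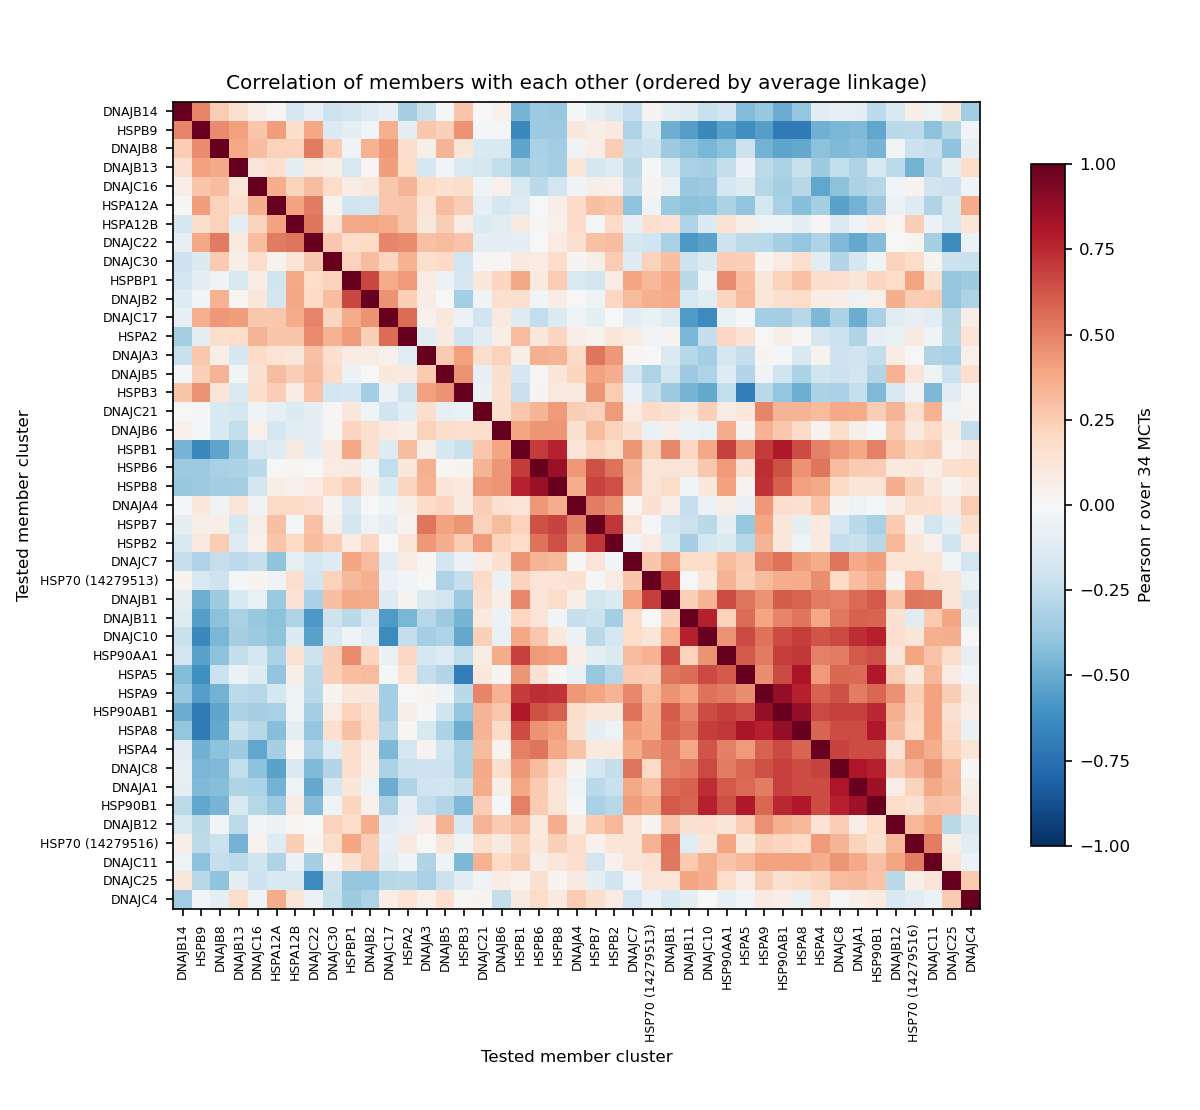
Pearson r over 34 MCTs between each 2 of the 43 tested member clusters, ordered by average linkage. A block around HSPA8, HSP90AB1, HSPA5 and HSP90B1, with HSPA8 and HSP90AB1 at 0.881, and a block of small heat shock proteins, with HSPB6 and HSPB8 at 0.863, stand out.

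The wider chaperone network was read from lists of genes. Of the HSF1 targets 12 were tested, 2 higher and 10 lower in M MCTs with a median difference of -0.10, and 0 had an unadjusted p under 0.05. Outside the members SERPINH1, the collagen chaperone, had the smallest p (difference -0.29, SE 0.29, p = 0.327), followed by FKBP4, an HSP90 co-chaperone (-0.10, p = 0.562), and BAG3 (-0.07, p = 0.683). Of 19 ER chaperone and unfolded protein response genes 3 were higher and 16 lower (median -0.10). Of them 1 (5.26%) had an unadjusted p under 0.05, against 4.14% of all tested clusters. It was the ER stress sensor ATF6, at 1.88 ± 0.23 in M and 2.08 ± 0.28 in NM MCTs (SD, n = 18 and 16, difference -0.20, limma p = 0.0318, adjusted p = 0.9997). Over all tested clusters 8440 were higher and 10806 lower in M MCTs. The HSF1 and ER lists hold members that varied together, such as HSPA8 with HSP90AB1 and HSPA5 with HSP90B1. Their counts of directions are therefore a description.

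Of 11 mitochondrial chaperone and protease genes 2 (18.2%) were at that level, against 4.14% of all tested clusters. They were DNAJA3 and DNAJC11, the same 2 members counted above, in opposite directions, and outside the members 0 of 7 were. Next outside the members was TRAP1, the mitochondrial HSP90 (-0.10, SE 0.07, p = 0.14). Among 20 co-chaperones and regulators 9 were higher and 11 lower, with 0 at that level and the smallest p for the HSP70 exchange factor BAG5 (-0.16, SE 0.09, p = 0.0804) and for BAG2 (0.18, SE 0.11, p = 0.103). Among 7 subunits of the CCT chaperonin and prefoldin 4 were higher and 3 lower, 0 at that level, and CCT3 (-0.19, SE 0.13, p = 0.147) and CCT2 (0.37, SE 0.27, p = 0.178) came first.

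Clusters most like the 3 singled-out genes were ranked by Pearson r over the 34 tumours, as a description. For DNAJA3 they were KCNG4 (0.606), LIMCH1 (0.585), EVX2 (0.581), CCDC13 (0.568) and MAPT (0.564). DNAJB6 was most like STIM1 (0.591), NDUFB8 (0.588), UBXN1 (0.574), FKBP4 (0.573) and TRAK1 (0.569). For HSP70 cluster 14279516, where NM7 and M2 stood apart, ABCF3 (0.827), HIPK1 (0.796), ZFP36L1 (0.784), SPTBN1 (0.777) and XPO5 (0.749) came first. For cluster 14279513, highest in M2, they were VWF (0.713), PLCG2 (0.698), DNAJB1 (0.694), C7 (0.691) and PPP1R15A (0.684). With PPP1R15A rho was 0.352 (permutation p = 0.0402, adjusted p = 0.101), and r was 0.164 without M13 and M2. Relations of VWF, PLCG2 and C7 without M2 were not computed. Of the 4 clusters of the singled-out genes, HSP70 cluster 14279516 was also the 1 whose relation to the immediate early score passed adjustment, by rho only (r = 0.368, rho = 0.542, permutation p = 0.0315 and 0.00105, adjusted p = 0.0751 and 0.00525). Its r was 0.649 within M and 0.0635 within NM MCTs. Cluster 14279513 had 0.569 within M and 0.0358 within NM MCTs, and r = 0.189 over all tumours (permutation p = 0.286, adjusted p = 0.419).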

How the data were processed

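Total RNA from 34 FFPE biopsies was amplified and hybridised to Affymetrix Canine Gene 1.1 ST arrays, which were run in strips that the sources used here do not assign to tumours. The deposited values are log2 expression. Per the submitters' processing notes and the methods, the authors left out outlier arrays and then normalised, log2-transformed and summarised the others by Robust Multichip Analysis in Expression Console 1.3. Group and replicate number came from the labels, and age and sex were matched by dog. All columns of the table were mapped to a tumour. The level filter (above 1.84 in at least 30% of a group) stands in for the authors' detection filter, whose detection values were not used here, and clusters were not restricted, as in the methods, to those hybridising to a unique target. Platform symbols, which can be old, gave 16895 clusters 1 gene, 272 several and 15224 none. The gene IDs of 68 of the 69 members were found in RefSeq with the same symbol.

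M and NM MCTs were compared with limma 3.58.1 in R 4.3.3 (two-sided, Benjamini-Hochberg over 19246 clusters), a test that was also run on simulated data. Correlations used two-sided permutation tests with 100000 resamples (SciPy 1.17.1, NumPy 2.4.6), adjusted over 50 relations, of which 33 were chosen after seeing the data. Members and gene lists were chosen with earlier results of these data known. Genes were named by rule: DNAJA3, DNAJB6 and HSP70, up to 4 tested members per subfamily with the smallest p, members with a difference of at least 0.5, the member of each subfamily with the highest SD, up to 3 further genes per chaperone list and the 5 clusters most like each singled-out gene. For a gene with 2 clusters the one with the higher mean stands first. HSPD1, HSPE1, HSPH1, HSPA9, HSPB2, HSPB6, HSPB8, HSPBP1 and CRYAB were added after values were seen. Alternatives were other filters, tests, normalisation, array weights, covariates, blocks and leaving out each tumour. A skeletal muscle covariate and a restriction to clusters with 1 symbol were chosen after seeing the data.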

Additional observations from a re-analysis of the deposited data

How the results depend on the processing

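Under every alternative tried limma, or the methods' t-test in its place, called 0 clusters at a Benjamini-Hochberg adjusted p under 0.05. This also held without any 1 tumour. At an unadjusted p under 0.05, 2 members were called. The count was 1 with the filter at the 75th percentile and with the replicate block, 4 with array weights, with age and with sex as covariates, and between 1 and 4 without single tumours. The share of all tested clusters was 4.14% in the main fit, 4.23% with that filter and 2.85% with the replicate block. It was 5.65% with array weights, 3.74% with age, 3.84% with sex and 3.39% to 5.19% without single tumours. Where the member count was 2 the members could differ: DNAJC4 and HSPB8 with breed as a block, DNAJA3 and DNAJB6 with the keratinocyte score. The direction of DNAJA3 and DNAJB6 was the same in all fits. DNAJA3 lost its unadjusted call with breed as a block (0.11), and without single tumours it ran from 0.14 to 0.20. DNAJB6 gained one with the keratinocyte score (0.48) and with age (0.37), and without single tumours it ran from 0.20 to 0.30, with a call also without NM1 (p = 0.0482) or without M3 (p = 0.0485). HSP70 cluster 14279516 had its sign turned with breed as a block (0.00047) and, without single tumours, ran from -0.44 to 0.0196, the last without NM7. In the breed fit a tumour that alone represents its breed, such as NM7, M5 or M6, adds nothing to the group difference. The causes of these changes between fits were not tested. The replicate numbers did not pair the tumours, as 3 of 16 shared numbers had deviations correlated above 0.1 and 0 tumours correlated best with their own number. With the replicate block DNAJA3 differed by 0.18. The number of arrays limits the precision, and clusters near the level filter rest on weak signal.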
